A study of Mus musculus with 12 samples.

Results

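Leukemic T cells carrying added Zmiz1 without the Notch1 mutant were set against the same cells carrying the Notch1 mutant without added Zmiz1, with 3 RNA sequencing libraries on each side, 6 of the 12 in the series. The host line was 8946, grown from a mouse T lymphoblastic leukemia, and every group of the series was this 1 line. Every cell population had received 2 retroviral vectors at once and was sorted for both vector markers, GFP and NGFR. The Zmiz1 group carried Zmiz1 with NGFR beside the empty GFP vector MigR1, and the Notch1 group carried the mutant L1601P with GFP beside the empty NGFR vector. The control group carried both empty vectors and the combined group carried L1601P and Zmiz1, and both serve here as reference levels. Expression was driven from retroviral vectors in sorted populations, so the levels of the added genes are those of the vectors and not of the cells' own promoters. Members of the comparison were the 10152 of 23284 gene symbols whose mean was at least 1 FPKM (fragments counted per gene, scaled for transcript length and for the fragments in the library) over the 12 libraries. The labels do not say if libraries of a group were made from separately transduced or grown cells, and the p-values therefore cover only library-to-library spread.

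Zmiz1 is a transcriptional coactivator related to the PIAS proteins, which are known for binding transcription factors and for a part in SUMO modification. Notch1 is a surface receptor that, once cleaved, releases an intracellular domain that enters the nucleus and switches on target genes through the DNA-binding protein Rbpj, and it drives early T cell development and is often mutated in T cell leukemia. L1601P lies in the part of the receptor that keeps its chains joined, and mutations there allow cleavage without ligand. The comparison sets one factor, on its own, directly against the other.

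The vector genes came first, because the labels of these groups disagree. Titles and column headers name the libraries as used here, while the cell line label gives L1601P/NGFR for the libraries titled Zmiz1 and MigR1/Zmiz1 for those titled Notch1. Zmiz1 (chromosome 14, 25459185 to 25666743, mm10) stood at 70.3, 67.7 and 74.4 FPKM in the libraries titled Zmiz1 and at 0.22, 0.221 and 0.194 in those titled Notch1. Notch1 (chromosome 2, 26457903 to 26516663) stood at 2.04, 1.92 and 2.34 FPKM in the former and 32, 42.2 and 22.1 in the latter. Ngfr (chromosome 11, 95568818 to 95587735), the gene of the marker, stood at 7.35, 7.23 and 7.71 FPKM against 61.4, 77 and 80.3. The titles thus name the vector gene that was high, and under the cell line label every Zmiz1 minus Notch1 difference below would only change its sign. Differences of these groups from the control or combined libraries would be exchanged between the groups. Notch1 varied within its own group, with replicate 2 the highest and replicate 3 the lowest. The extent and species of the vector inserts are not given in the sources used here, so the values are those read off the mouse genes.

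The sum of FPKM lay between 549098 and 606908 per library, and 14233 to 14554 genes were above 0. Read totals are not given in the files used here, so depth is unknown in absolute terms. Replicate 2 of the Zmiz1 group stood apart from the other 11 libraries, with the lowest mean correlation, 0.942, and the fewest genes above 0, 14233. Replicate 1 of all 4 groups differed from the other replicates in its smallest values, so each group held 1 such library. The likeness among these 4 libraries was uneven, as the last paragraph shows. The cells showed all 10 T cell markers, and no marker of B cells or NK cells reached a mean of 1 FPKM in the 6 libraries. Ms4a1 and Pax5 of B cells and Ncr1, Klrd1 and Nkg7 of NK cells were listed at 0 in all 6. Among 12 myeloid markers only Itgam reached that mean, and Cd14, S100a8, S100a9 and Cebpa were listed at 0. Of the erythroid, fibroblast and early progenitor markers only Epor, Thy1 and Ly6a, in that order, reached it.

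The groups differed in 1109 of 10152 genes (10.9%) at an adjusted p under 0.05 (limma on log2(FPKM + 1) with Benjamini-Hochberg adjustment over the 10152), and such genes are named called below. Of these, 443 (4.36% of genes tested) were higher in Zmiz1 libraries and 666 (6.56%) were higher in Notch1 libraries. Zmiz1-higher genes made up 39.9% of the calls as deposited and 50.3% (531 against 524) when libraries were rescaled by median ratio. All differences below are Zmiz1 minus Notch1 on the log2(FPKM + 1) scale, so that positive values mean higher in Zmiz1 libraries, and they understate the ratio for genes near or under 1 FPKM. Most were small: 721 called genes differed by less than 0.5, and 85 by at least 1, of which 42 were higher in Zmiz1 and 43 in Notch1 libraries. The median over all genes was -0.03. Without Zmiz1 replicate 2 the count was 1110, and without Notch1 replicate 3 it was 765, the fewest of any library left out, with 331 higher in Zmiz1 and 434 in Notch1 libraries. In replicates 2 and 3 of each group alone 473 genes were called, and with replicate 1 as a batch term 1903. With 3 libraries against 3 an exact permutation test cannot give a p under 0.1, so the calls rest on the spread that limma shares across genes.

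**Figure D1:**
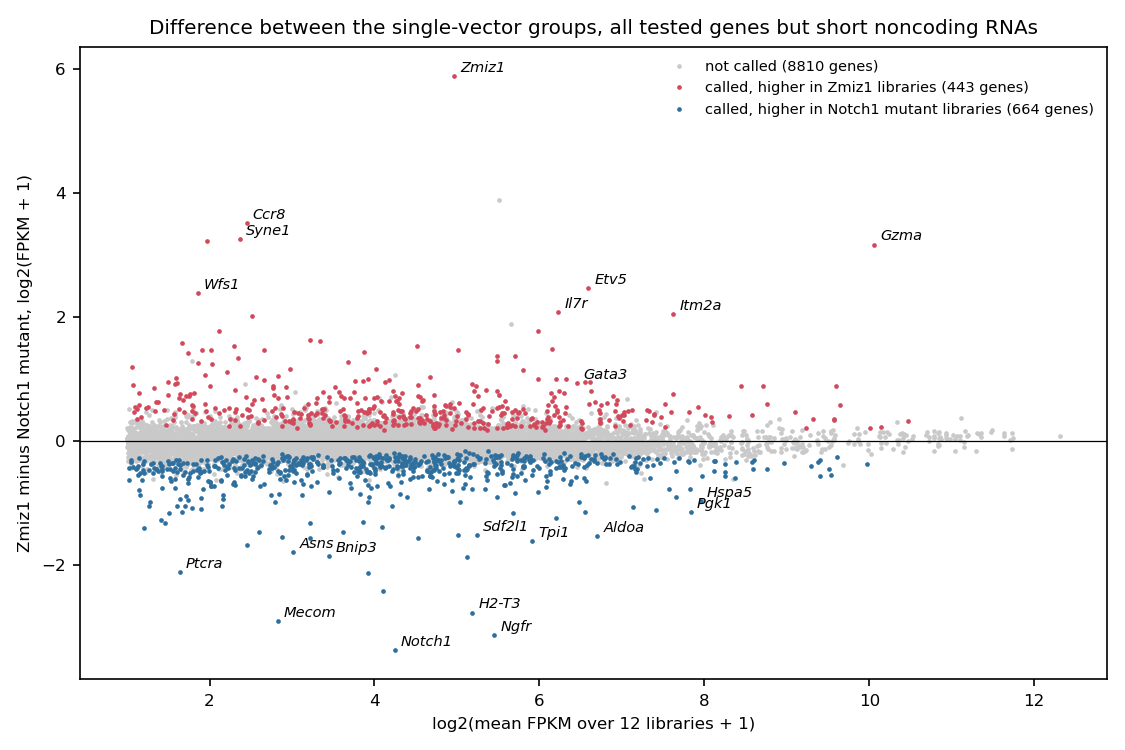
Difference between Zmiz1 and Notch1 mutant libraries (vertical axis, log2(FPKM + 1)) against the mean level over 12 libraries (horizontal axis, log2) for each tested gene but the short noncoding RNAs. Red points (443 genes) were called higher in Zmiz1 and blue points (664 genes) in Notch1 libraries; apart from the vector genes, Ccr8, Syne1 and Gzma lie farthest up and Mecom and H2-T3 farthest down among the genes labelled.

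Known Notch targets did not all lie on the Notch1 side. Ptcra, which pairs with the first receptor beta chain in immature T cells, stood at 4.37, 5.65 and 5.85 FPKM in Notch1 libraries and at 0.286, 0.602 and 0.466 in Zmiz1 libraries (-2.11 ± 0.12, adjusted p = 1.78e-06; differences are given ± SE). Trib2, a pseudokinase, was at 26.6, 23.3 and 24.3 against 10.6, 7.33 and 8.75 FPKM (-1.39 ± 0.10, adjusted p = 1.35e-05). Neither gene overlapped between the groups, as held for 23.5% of all tested genes, and the control levels, 0.555 ± 0.152 and 11.5 ± 0.659 FPKM (mean ± SD, n = 3), lay near those of the Zmiz1 libraries. Dtx1, an E3 ligase of the pathway, and Notch3, a further receptor, lay under the filter and were tested without it, where 7.36% of 16835 genes were called. Dtx1 was at 1.48, 1.9 and 1.83 FPKM in Notch1 libraries and at 0.00778, 0 and 0.0168 in Zmiz1 libraries (-1.44, adjusted p = 2.36e-07). Notch3 was at 1.63, 1.94 and 1.22 and at 0.0486, 0.0445 and 0.0344 FPKM (-1.31, adjusted p = 9.75e-06).

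The interleukin 7 receptor chain Il7r and the transcription factor Gata3, which also stand in the list of Notch targets, went the other way. Il7r was at 129, 140.3 and 117 FPKM in Zmiz1 libraries and 32.4, 28.2 and 28.1 in Notch1 libraries (2.09 ± 0.079, adjusted p = 6.37e-08), and Gata3 at 114, 152 and 102 and 65.6, 59 and 63.8 (0.94 ± 0.12, adjusted p = 7.88e-04). Of the 11 Notch targets that passed the filter, 4, with Ptcra and Trib2 among them, were called higher in Notch1 and 2 higher in Zmiz1 libraries. Dtx1 and Notch3, under the filter, are not in this count. The other 2 on the Notch1 side were Ccnd3, a D cyclin (-0.34, adjusted p = 0.00301), and Cd3e, whose call ended under median ratio scaling, under quantile normalization and in 10 of 12 runs with 1 library left out. Hes1, the best known target, was listed at 0 in all 12 libraries, Nrarp overlapped between the groups at a mean of 0.210 and 0.216 FPKM, and Lef1 and Tcf7 were not called (0.08 and 0.07). Myc, a main target in leukemia, was below 1 FPKM on both sides, at 0.465 ± 0.165 in Zmiz1 and 0.807 ± 0.0833 in Notch1 libraries, and was not called (-0.31, adjusted p = 0.0792). It passed the filter only through the combined libraries, at 5.91, 6.76 and 6.87 FPKM. Among 21 Notch pathway components tested, Notch1 and Adam17, a sheddase that cuts the receptor, were called. The Adam17 difference was 0.30, and its call ended without any of 8 libraries. Rbpj (0.05) was not called.

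After Zmiz1 itself, Ccr8, Syne1 and Gzma had the largest called differences in favour of Zmiz1 among genes named by the rule. Ccr8, a chemokine receptor (chromosome 9, 120092114 to 120094906), was at 13.7, 15.1 and 11.3 FPKM in Zmiz1 and 0.253, 0.227 and 0.249 in Notch1 libraries (3.52 ± 0.11, adjusted p = 9.64e-09). Gzma, the granzyme A protease of cytotoxic granules, was at 2379, 2120 and 2262 against 227, 246 and 279 FPKM (3.17 ± 0.080, adjusted p = 2.45e-09). Etv5, an ETS transcription factor, was at 179.7, 185 and 173 against 33.6, 31.6 and 30.2 FPKM (2.46 ± 0.056, adjusted p = 1.32e-09). The rule for the largest differences took only genes whose groups did not overlap. In bulk RNA, a level carried by fewer cells and less RNA per cell cannot be told apart.

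**Figure D2:**
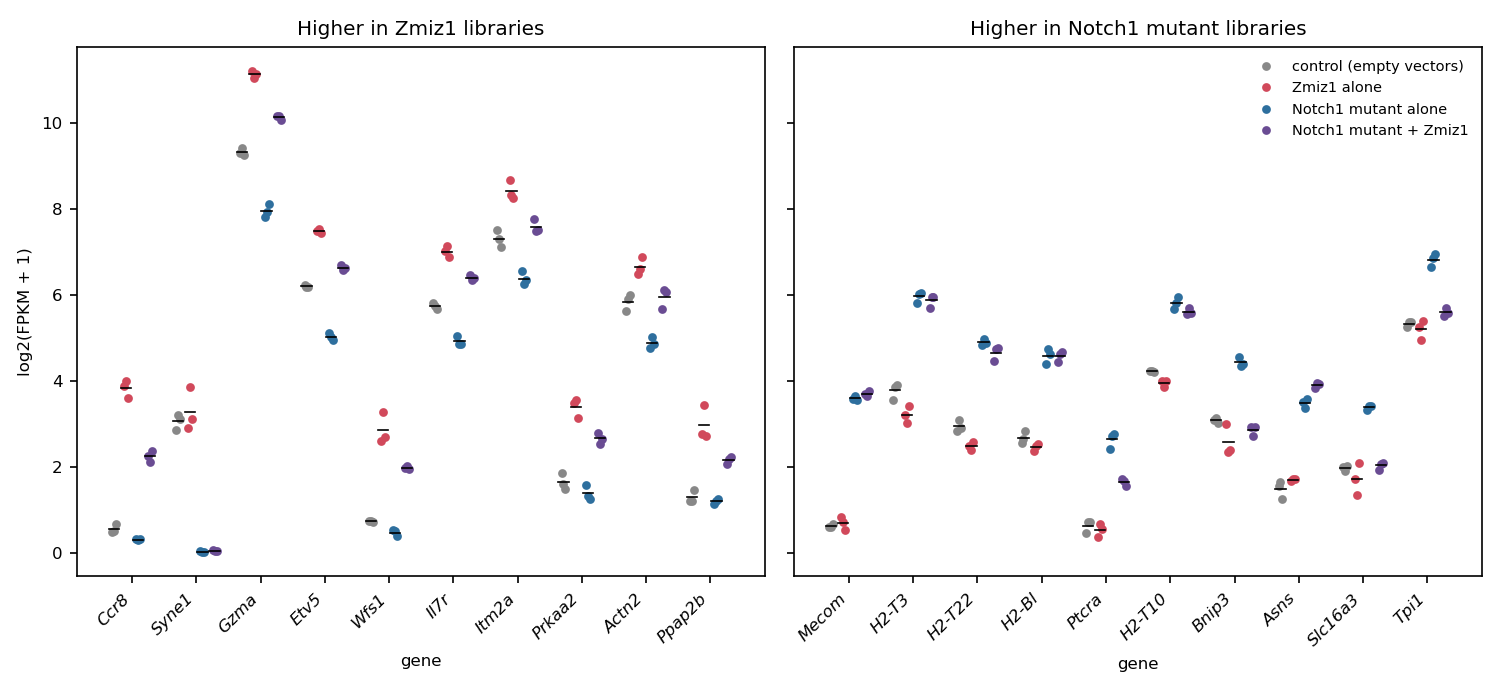
Levels (log2(FPKM + 1), vertical axis) of 10 genes higher in Zmiz1 libraries (left) and 10 higher in Notch1 mutant libraries (right), with 1 point per library, 3 per group, and a line at each group mean. Gzma goes from 2254 FPKM in Zmiz1 libraries to 250.4 in Notch1 libraries with the combined (1127) and control (644) groups between them, while Syne1 is near 0 in both groups that carry the Notch1 mutant.

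Chemokine receptors are the receptors by which T cells follow tissue signals. Of 8 tested receptors for chemokines and sphingosine phosphate, Ccr8 and Ccr9 were called, both higher in Zmiz1 libraries, and Ccr9, which guides cells to thymus and gut, was at 6.56, 8.67 and 5.61 against 1.7, 1.77 and 1.68 FPKM (1.53 ± 0.12, adjusted p = 1.49e-05). Ccr4 (0.62), Ccr7 (-0.10) and Cxcr4 (0.03) were not called. Of 27 tested cytokine receptor and JAK-STAT-SOCS genes, 5 were higher in Zmiz1 and 2 in Notch1 libraries, with a median of 0.19. Besides Il7r these were Jak1, the kinase that sits on the receptor (0.29, adjusted p = 0.0137), and Il4ra, Il6st and Il17ra. Without Notch1 replicate 3 these last 3 lost their calls, which left 2, and Il6st also lost it without Zmiz1 replicate 2. The 2 on the Notch1 side were Socs3, a feedback inhibitor of cytokine signals, at 4.18, 4.66 and 4.66 FPKM against 1.24, 2.21 and 1.35 (-1.10 ± 0.14, adjusted p = 5.04e-04), and Ifngr1, an interferon gamma receptor chain (-0.51 ± 0.060, adjusted p = 3.68e-04).

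Granule genes moved in both directions. Besides Gzma, Sytl3 and Sytl2, adaptors that tether granules to the membrane through Rab27, were higher in Zmiz1 libraries, Sytl3 at 5.07, 6.25 and 5.13 against 1.29, 1.28 and 1.45 FPKM (1.46 ± 0.088, adjusted p = 2.28e-06) and Sytl2 at 10.9 ± 2.7 against 4.27 ± 0.33 (1.16 ± 0.13, adjusted p = 2.77e-04). Prf1, the pore-forming perforin, was lower in Zmiz1 libraries, at 1.54, 1.26 and 1.53 against 2.23, 2.61 and 2.43 FPKM (-0.49 ± 0.083, adjusted p = 0.00391). Of 14 tested members 3 were thus higher in Zmiz1 and 3 in Notch1 libraries. The last 2, Ctsc (-0.31) and Serpinb9 (-0.43), each lost the call without 5 or more of the 12 libraries, which left 1 in the runs without Zmiz1 replicate 2 or 3 or Notch1 replicate 1 or 3. Rab27a (0.05) and Srgn (-0.19) were not called.

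Transcription factors of the T lineage were mostly higher in Zmiz1 libraries where they were called, with 6 of 23 higher there and 2 in Notch1 libraries. Ikzf1, the Ikaros factor, was at 328, 303 and 294 against 252, 233 and 222 FPKM (0.39 ± 0.068, adjusted p = 0.00466), and Sox4 at 146 ± 8.38 against 106 ± 17.1 (0.46 ± 0.10, adjusted p = 0.0151). Gata3 is given above, and Tox, Tcf12 and Zbtb16 made up the 6, each with a call that ended without several libraries, so that 3 were left without Notch1 replicate 3. The 2 on the Notch1 side were Mecom and Klf2 (-0.42 ± 0.077, adjusted p = 0.00555), and Bcl11b, Tcf7, Lef1, Satb1 and Runx1 were not called. Among 22 tested ETS factors and ERK feedback genes, 13.6% were called, near the 10.9% of all tested genes. Etv5, Elf1 (0.33 ± 0.061, adjusted p = 0.00584) and Erf (0.46) were higher in Zmiz1 libraries and none was higher in Notch1 libraries. With only the 6 libraries of the comparison in the model limma called 1. The Erf call ended without any of 10 libraries. Dusp4, Dusp5 and Dusp6, phosphatases that damp ERK, were not called (-0.15, -0.02 and -0.00).

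Genes of TGF-beta signaling were called in 1 direction only among those tested, 5 of 17 higher in Zmiz1 libraries, with a median of 0.20. Smad3, which carries the signal to the nucleus, was at 82.6, 71.4 and 83.8 against 58.8, 62.1 and 54.8 FPKM (0.43 ± 0.068, adjusted p = 0.00265). Tgfbr3, a coreceptor (0.33, adjusted p = 0.00433), and Ski, a repressor of Smads (0.27, adjusted p = 0.0131), also kept their calls without each library. Smad4 (0.32) and Smad7 (0.70) did not, and 3 members were left without Notch1 replicate 2 or 3. With only the 6 libraries of the comparison in the model limma called none of the 17 (5 had an unadjusted p under 0.05), and in replicates 2 and 3 alone it called 1. Among 27 genes of PI3K, Akt, mTOR and AMPK signaling, 3 were called on each side. Prkaa2, a catalytic subunit of AMPK, was higher in Zmiz1 libraries, at 10.2, 10.9 and 7.81 against 2.01, 1.51 and 1.37 FPKM (2.01 ± 0.14, adjusted p = 7.72e-06). Prr5 and Mapkap1, subunits of mTORC2, and Prkag2, of AMPK, were higher in Notch1 libraries, Prr5 at 3.81, 3.07 and 3.66 against 7.48, 8.29 and 8.06 FPKM (-0.99 ± 0.075, adjusted p = 1.49e-05). Pik3cd, a PI3K subunit, was also called higher in Zmiz1 libraries, and its call ended without any of 10 libraries.

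Further genes with large differences on the Zmiz1 side were Itm2a, a membrane protein of activated and developing T cells, at 346 ± 53.9 against 83.1 ± 9.17 FPKM (2.04), and Pdcd1, the inhibitory receptor PD-1, at 3.34, 5.54 and 3.86 against 0.608, 0.844 and 0.716 (1.59 ± 0.14, adjusted p = 4.24e-05). Actn2 (1.78), Ppap2b (1.77), Kctd12 (1.63), St3gal2 (1.62) and Tmem158 (1.53) completed the 15 largest with Wfs1 and Syne1. Syne1, the nesprin 1 protein of the nuclear envelope (chromosome 10, 5020917 to 5551482), was at 6.46, 13.5 and 7.71 FPKM in Zmiz1 and 0.042, 0.0159 and 0.0116 in Notch1 libraries (3.26 ± 0.20, adjusted p = 2.38e-06). It was at 6.27, 8.21 and 7.72 FPKM in the control and 0.055, 0.0286 and 0.0271 in the combined libraries, so it was near 0 in all 6 libraries with the Notch1 mutant and in none of the others. Its tested neighbours within 500000 bases, Fbxo5 and Mtrf1l, were not called (-0.08 and 0.11), nor was any other of the 11 nuclear envelope genes tested.

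On the Notch1 side, Mecom had the largest difference after the vector genes. Mecom, which encodes the zinc finger factor Evi1 (chromosome 3, 29951296 to 30548008), was at 10.9, 11.7 and 10.7 FPKM in Notch1 and 0.796, 0.658 and 0.441 in Zmiz1 libraries (-2.90 ± 0.082, adjusted p = 4.86e-09). It was at 0.52, 0.533 and 0.586 FPKM in the control and 11.9, 11.7 and 12.6 in the combined libraries. The 6 libraries with the Notch1 mutant were thus all above 10 FPKM and the other 6 all below 1. The 5 tested neighbours within 500000 bases, Mynn, Sec62, Gpr160, Phc3 and Prkci, were not called, with differences from -0.10 to 0.13.

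Nonclassical MHC class I genes of the H2-T region followed. H2-T3, the thymus leukemia antigen, was at 55.8, 64.8 and 65.8 FPKM in Notch1 and 8.21, 7.13 and 9.66 in Zmiz1 libraries (-2.76 ± 0.13, adjusted p = 2.16e-07). H2-T22 was at 27.7, 30.8 and 28.5 against 4.62, 4.26 and 5.02 FPKM (-2.41 ± 0.097, adjusted p = 1.03e-07), and H2-T10, which like H2-T22 is bound by some gamma delta T cell receptors, at 50.5, 55 and 61.2 against 15, 13.5 and 15 (-1.87 ± 0.075, adjusted p = 1.03e-07). H2-Bl was at 23.3 ± 2.83 against 4.53 ± 0.306 FPKM (-2.13, adjusted p = 3.51e-07). The 4 genes lie between 36037128 and 36190287 on chromosome 17, are near-identical in parts and can share reads, so the split of the signal among them is uncertain. Within the stretch Gm8909 was also called higher in Notch1 libraries (-0.87), and so was A930015D03Rik (-0.68), which overlaps its edge. Gm11127 (0.14) and Gm7030 (0.07), which also lie within the stretch, were not called. H2-T23 and H2-T24, just before the stretch, were not called (-0.01 and 0.17).

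Of 25 tested class I and antigen processing genes, 10 were higher in Notch1 and 1, H2-Q8 (0.50), in Zmiz1 libraries, where leaving out Zmiz1 replicate 2 gave 2. The classical genes H2-K1 and H2-D1 were not called (0.19 and 0.20). Psmb10, an immunoproteasome subunit, was at 48.6 ± 4.11 against 37.2 ± 3.04 FPKM (-0.38, adjusted p = 0.0138). The remaining 5, H2-M3, B2m, Tap1, Tapbp and Psmb9, had differences from -0.47 to -0.18 and lost their calls without several libraries. The count was 6 under median ratio scaling, 6 without control replicate 2 or 3, Notch1 replicate 2 or combined replicate 1 or 3, and 5 without Notch1 replicate 3.

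T cell receptor genes were called higher in Notch1 libraries in 13 of 29 tested and in Zmiz1 libraries in 3, with a median of -0.22 against -0.03 over all genes. Cd6, an adhesion receptor of T cells, was at 24.8, 27.9 and 26.4 against 11.4, 12.2 and 13.1 FPKM (-1.05 ± 0.086, adjusted p = 2.52e-05), and the kinase Lck at 834, 912 and 899 against 614, 551 and 644 (-0.55 ± 0.069, adjusted p = 5.61e-04). Cd8a (-0.30 ± 0.041, adjusted p = 0.001), Cd8b1 (-0.37), Cd3d (-0.31), Cd2 (-0.58), Cd5 (-0.44) and Cd7 (-0.58) were called in the same direction, while Cd4 (-0.02) and Zap70 (-0.04) were not called. The 3 on the Zmiz1 side were the adaptor Lcp2, at 224, 241 and 217 against 151, 149 and 151 FPKM (0.59 ± 0.049, adjusted p = 2.88e-05), the exchange factor Rasgrp1 (0.42, adjusted p = 0.00238) and the kinase Fyn (0.29, adjusted p = 0.0102). Signaling genes were called on the Notch1 side too, among them Lck, Lat and Ptpn22. Of the 13, 9 kept the call without each of the 12 libraries, and Cd3e, Cd3g, Lat and Sh2d1a did not. The 10 T cell markers, all of which are also in this list, summed to 3212 to 3609 FPKM in Zmiz1 and 3944 to 4682 in Notch1 libraries, and 7 of them were called, or 4 without Notch1 replicate 3 or Zmiz1 replicate 2. Their part in the result was not tested.

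Glycolysis turns glucose into pyruvate and lactate, and its enzymes had the highest share of calls of the lists with 10 or more tested genes. Of 20 tested genes for the enzymes, glucose transporters and lactate exporters, 15 were higher in Notch1 libraries and none in Zmiz1 libraries, with a median of -0.52. Tpi1, triosephosphate isomerase, was at 99.4, 116 and 123 FPKM in Notch1 and 37.6, 30.3 and 41.2 in Zmiz1 libraries (-1.61 ± 0.11, adjusted p = 7.72e-06). Aldoa, aldolase A, was at 177, 194 and 209.8 against 70, 58.2 and 70.1 FPKM (-1.54 ± 0.086, adjusted p = 1.25e-06), and Slc16a3, a lactate exporter, at 9.12, 9.75 and 9.73 against 2.3, 1.56 and 3.28 (-1.67 ± 0.15, adjusted p = 4.25e-05). In all of these the Notch1 libraries lay above each Zmiz1 library. Pgk1 (-1.15), Pkm2 (-0.90), Pfkl (-0.85), Eno1 (-0.77), Pgam1 (-0.71), Pfkp (-0.71), Ldhb (-0.55), Gpi1 (-0.49), Ldha (-0.44) and Gapdh (-0.35) were also called.

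Genes of glucose uptake were not among the calls. The glucose transporters Slc2a1, at 9.99, 8.78 and 9.35 FPKM in Zmiz1 and 10, 9.88 and 9.99 in Notch1 libraries (-0.08, adjusted p = 0.386), and Slc2a3 (-0.16, adjusted p = 0.149) were not called, nor were Pdk1, Pfkm and the lactate carrier Slc16a1. Hk1 and Pfkfb3 lost their calls without 10 of the 12 libraries each and under median ratio scaling, and the other 13 kept theirs without each library and under both scalings. Levels in the control and combined groups were 39.4 ± 1.77 and 47.7 ± 3.32 FPKM for Tpi1, 74.6 ± 1.98 and 78.9 ± 4.51 for Aldoa, and 173 ± 6.14 and 194 ± 9.14 for Pgk1. Against the control, which both single-vector comparisons share, the Pgk1 difference was 1.11 in Notch1 (adjusted p = 1.68e-06) and -0.04 in Zmiz1 libraries (adjusted p = 0.841).

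Genes of HIF, the oxygen-sensing transcription factor that also acts on glycolysis, were split. This list holds HIF's own subunits and regulators as well as its targets outside glycolysis. Of 20 tested, 6 were higher in Notch1 and 2 in Zmiz1 libraries, and the median was 0.03. Bnip3, a mitophagy receptor, was at 22.7, 19.3 and 20.1 FPKM in Notch1 and 7.05, 4.11 and 4.31 in Zmiz1 libraries (-1.85 ± 0.15, adjusted p = 2.30e-05). Fam162a (-0.90 ± 0.11, adjusted p = 4.72e-04), the prolyl hydroxylase Egln1 (-0.80 ± 0.053, adjusted p = 5.43e-06) and Higd1a (-0.68, adjusted p = 0.0035) also kept their calls without each library, and P4ha1 and Ddit4 did not. The related hydroxylase Egln3 was at 57.5, 46.4 and 55.1 FPKM in Zmiz1 and 29.5, 29.2 and 29.9 in Notch1 libraries (0.82 ± 0.076, adjusted p = 6.41e-05), opposite in direction to Egln1. The other call on the Zmiz1 side, Arnt (0.21), ended without 7 of the libraries, among them each control replicate. Hif1a itself (0.18, adjusted p = 0.286), Vegfa (-0.20) and Bnip3l (0.11) were not called. Of 21 promoters listed for 14 of the 15 glycolysis genes, 10 (47.6%) held the HIF core ACGTG on either strand, against 26.6% of 9101 promoters of tested genes, and the 10 belong to 8 genes. The same core was in 6 of 14 promoters (42.9%) of the called ER genes and in 4 of 9 (44.4%) of the called amino acid supply genes.

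**Figure D3:**
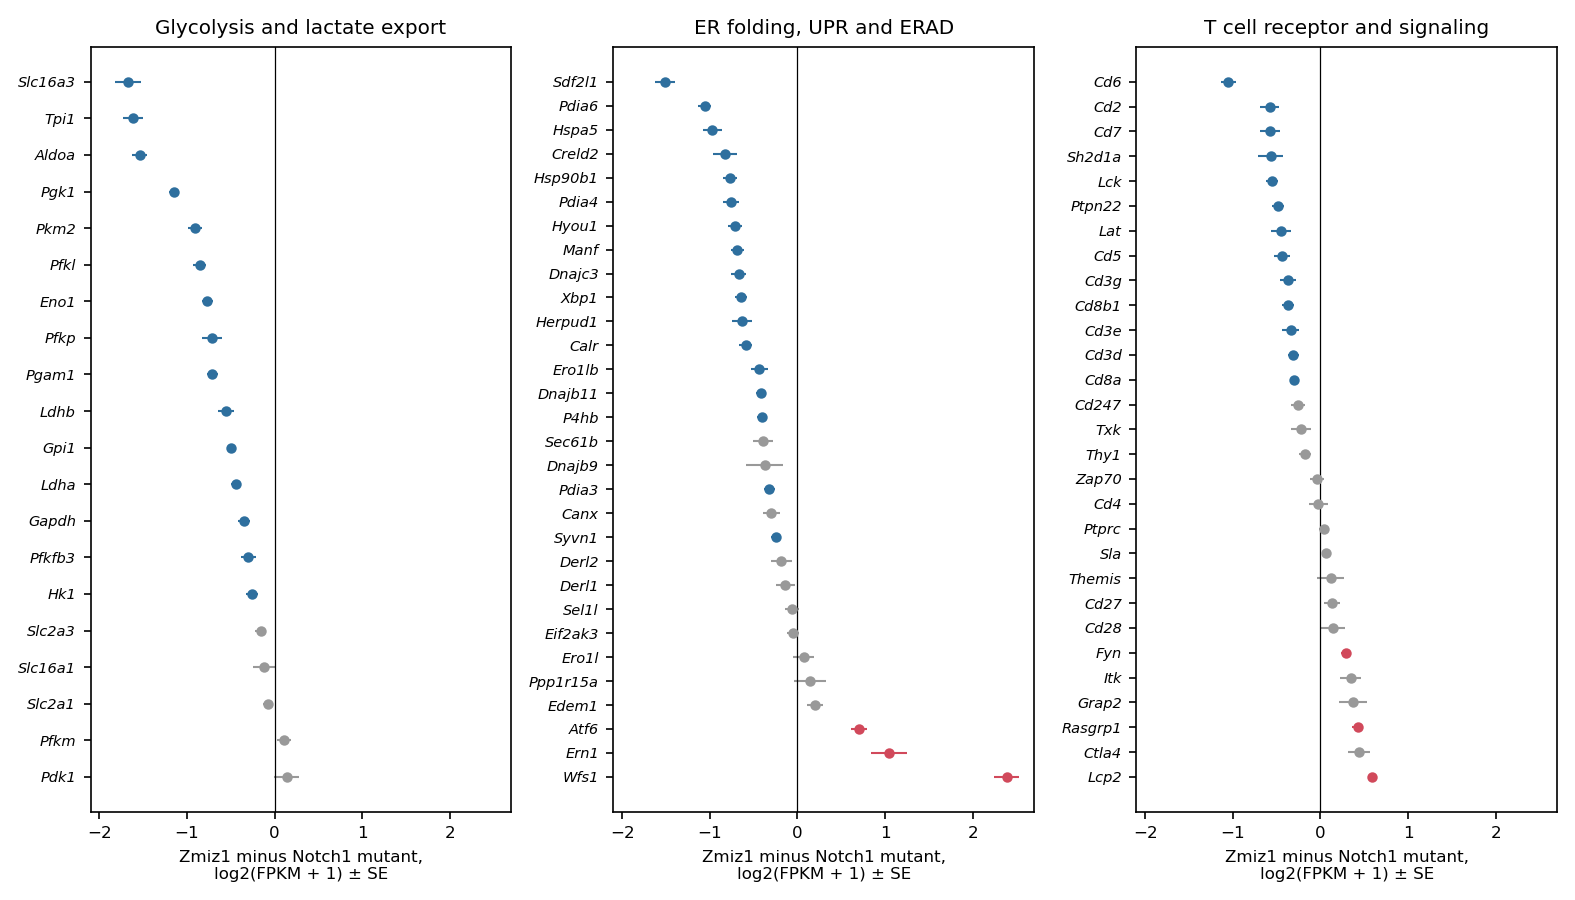
Difference ± SE between Zmiz1 and Notch1 mutant libraries (horizontal axis, log2(FPKM + 1), 3 libraries a side) for each tested gene of 3 lists, with blue points for genes called higher in Notch1, red for genes called higher in Zmiz1 libraries and grey for the others. Of the 20 glycolysis genes 15 are blue and none red, while Wfs1 (2.39), Ern1 and Atf6 stand opposite to 17 blue genes of the endoplasmic reticulum.

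The endoplasmic reticulum (ER) folds secreted and surface proteins, and when folding falls behind, sensors in its membrane (Ern1, Atf6 and Eif2ak3) raise its chaperones in the unfolded protein response. Of 30 tested genes of folding, this response and the degradation of misfolded proteins, 17 were higher in Notch1 and 3 in Zmiz1 libraries, with a median of -0.39. Sdf2l1, a chaperone cofactor, was at 44.5, 48.7 and 51.8 FPKM in Notch1 and 16.8, 13.1 and 19.5 in Zmiz1 libraries (-1.51 ± 0.12, adjusted p = 1.49e-05). Pdia6, a disulfide isomerase, was at 168, 176 and 181 against 87.5, 73.7 and 89.8 FPKM (-1.06 ± 0.074, adjusted p = 7.72e-06), and Hspa5, the chaperone BiP, at 295, 295 and 283 against 165, 119 and 164 (-0.97 ± 0.10, adjusted p = 1.83e-04). Hsp90b1, Pdia4, Hyou1, Manf, Creld2, Dnajc3, Herpud1, Calr and the transcription factor Xbp1 followed, with differences from -0.83 (Creld2) to -0.59 (Calr). Of the 17, 16 kept the call without each library and all 17 under both scalings, and Syvn1 was the exception, without Zmiz1 replicate 1 or Notch1 replicate 2 or 3.

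The 3 genes on the Zmiz1 side included 2 of the sensors. Wfs1, a membrane glycoprotein of the ER, was at 5.13, 8.67 and 5.5 FPKM in Zmiz1 and 0.441, 0.418 and 0.321 in Notch1 libraries (2.39 ± 0.14, adjusted p = 2.23e-06), Ern1 at 6.87, 11.4 and 8.11 against 4.07, 4.87 and 2.42 (1.04 ± 0.20, adjusted p = 0.00801) and Atf6 at 26.7, 31.8 and 24.9 against 17.9, 17.3 and 14.7 (0.71 ± 0.091, adjusted p = 6.58e-04). The third sensor, Eif2ak3, was not called (-0.05, adjusted p = 0.65), nor was Ppp1r15a (0.15), which acts after it. Hspa5 averaged 149.6 ± 2.9 FPKM in the control and 398 ± 8.01 in the combined libraries, and Wfs1 0.666 ± 0.0205 and 2.97 ± 0.0943. The 6 libraries with the Notch1 mutant therefore held more Hspa5 than the other 6, while both groups with added Zmiz1 held more Wfs1.

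Promoters bear on this list, because many ER chaperone genes are known to carry the ER stress response element, CCAAT and CCACG with 9 free bases between them. Searched on both strands in the RefSeq promoter table (build GRCm38.p6, from 250 bases before to 50 after each start), it was in 15 of 9101 promoters of tested genes (0.165%). It was in 8 of 637 promoters of genes called higher in Notch1 libraries (1.26%) and in 0 of 424 of genes called higher in Zmiz1 libraries. Of the 17 ER genes higher in Notch1 libraries, 14 had a promoter in the table and 7 of these held the element. Their elements are shown because they are the sequence these 7 genes have in common, with the letters fixed in the search in capitals and the 9 free bases in lower case:
Pdia6, chr12:17266491-17266509, plus strand: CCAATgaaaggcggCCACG
Hspa5, chr2:34772025-34772043, plus strand: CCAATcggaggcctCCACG
Creld2, chr15:88819520-88819538, minus strand: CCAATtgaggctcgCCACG
Hsp90b1, chr10:86705638-86705656, minus strand: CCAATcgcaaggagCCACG
Hsp90b1, chr10:86705533-86705551, plus strand: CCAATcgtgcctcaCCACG
Dnajc3, chr14:118937827-118937845, plus strand: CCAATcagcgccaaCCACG
Calr, chr8:84847075-84847093, plus strand: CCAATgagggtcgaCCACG
Syvn1, chr19:6046532-6046550, plus strand: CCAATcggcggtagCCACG
Each is written 5′ to 3′ on the strand named, and Hsp90b1 has a copy on each strand. The eighth gene was Spats2l, outside the list (-0.95). The remaining 7 promoters with the element belonged to genes that were not called, among them Canx of the ER list (-0.30) and Alg12, which shares the Creld2 element.

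The Hspa5 promoter is given as the example with its element in capitals, 250 bases before the start on the plus strand of chr2:34771840-34772089:
Hspa5: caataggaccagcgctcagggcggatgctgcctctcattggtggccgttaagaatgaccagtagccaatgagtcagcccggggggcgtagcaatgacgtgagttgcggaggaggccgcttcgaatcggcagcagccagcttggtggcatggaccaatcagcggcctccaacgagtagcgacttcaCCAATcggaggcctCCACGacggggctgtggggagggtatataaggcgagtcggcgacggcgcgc
The element ends 47 bases before the start, and several further ccaat or attgg runs lie upstream of it. Sdf2l1, with the largest difference of the list on the Notch1 side, had no exact match in its window. The Rbpj core TGGGAA, on either strand, was in 22.5% of promoters of genes higher in Notch1, 20.99% of those higher in Zmiz1 libraries and 22.3% of all. These matches describe letters in a window and no binding was measured.

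Asns, the gene with the largest difference of its list on the Notch1 side, serves amino acid supply. Asns, asparagine synthetase, was at 10.4, 9.41 and 11 FPKM in Notch1 and 2.21, 2.29 and 2.3 in Zmiz1 libraries (-1.78 ± 0.095, adjusted p = 8.73e-07). Of 26 tested genes of amino acid stress, serine synthesis and one-carbon metabolism, 10 were higher in Notch1 and 2 in Zmiz1 libraries, with a median of -0.14. The serine enzymes Phgdh, at 43.2, 52.1 and 50.3 against 24.9, 29.7 and 29.2 FPKM (-0.78 ± 0.093, adjusted p = 3.84e-04), and Psat1 (-0.47, adjusted p = 5.75e-04) were among them, as were Shmt2 (-0.57, adjusted p = 7.84e-05) and Mthfd2 (-0.46, adjusted p = 0.00136) of mitochondrial one-carbon metabolism, the transporters Slc7a5 (-0.43) and Slc1a5 (-0.37), and Trib3 (-0.72). The neutral amino acid transporter Slc1a4, at 27.7, 35.5 and 27.2 FPKM in Zmiz1 and 16.3, 16 and 14.2 in Notch1 libraries (0.91 ± 0.096, adjusted p = 1.58e-04), and Cth, which makes cysteine (0.71 ± 0.061, adjusted p = 3.75e-05), went the other way. Atf4, the transcription factor of this response, was not called (-0.12, adjusted p = 0.28). Of 20 aminoacyl-tRNA synthetases, which load tRNAs for translation, 6 were higher in Notch1 and none in Zmiz1 libraries, with Aars (-0.40, adjusted p = 0.00399) and Cars (-0.40, adjusted p = 0.0133) the largest differences. The model with only the 6 Zmiz1 and Notch1 libraries called none of the synthetases (8 had an unadjusted p under 0.05 in limma), and replicates 2 and 3 alone gave 1.

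Cholesterol and fatty acid synthesis had 11 of 27 tested genes higher in Notch1 libraries and 1, the elongase Elovl6 (0.29), in Zmiz1 libraries (2 without Zmiz1 replicate 1 or Notch1 replicate 2), with a median of -0.27. Sqle, squalene epoxidase, was at 31.1, 29.4 and 28.8 against 21.3, 22 and 19 FPKM (-0.50 ± 0.063, adjusted p = 5.54e-04). Fdps (-0.46), Dhcr7 (-0.38) and Fdft1 (-0.27) also kept their calls without each library. This count was the least stable of the large ones: it was 6 without Zmiz1 replicate 1, 7 without Notch1 replicate 2 or 3, and 1 with only the 6 libraries in the model.

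**Figure D4:**
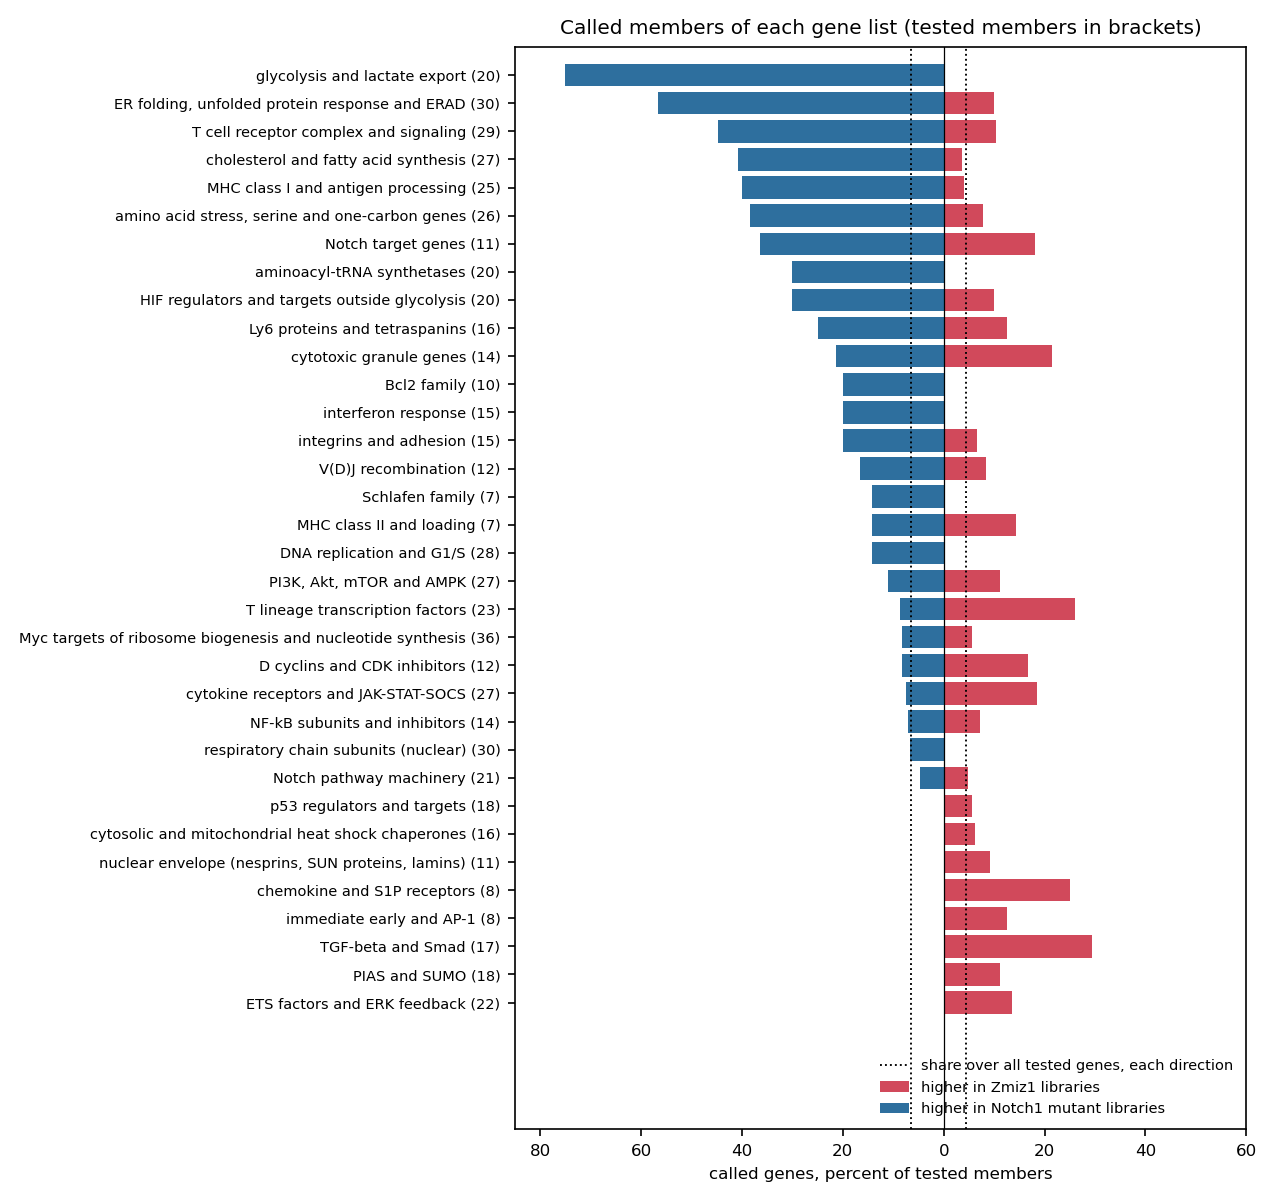
Called genes of each list as a percent of its tested members (number in brackets), to the right for genes higher in Zmiz1 libraries and to the left for genes higher in Notch1 mutant libraries, with dotted lines at the share over all tested genes in each direction (4.36% and 6.56%). Among the lists drawn, glycolysis (15 of 20) and the ER list (17 of 30) reach farthest to the left and TGF-beta (5 of 17) farthest to the right. The mitosis list, with no call, is not drawn. Nor are the cell type marker lists, of which the T cell markers had 7 of 10 called higher in Notch1 libraries.

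Against 10.9% of all tested genes, none of 27 mitosis genes was called by limma, and 2 had an unadjusted p under 0.05; a batch term for replicate 1 called 2 higher in Zmiz1 and 1 in Notch1 libraries. Of 28 DNA replication genes, 4 were higher in Notch1 libraries and none in Zmiz1 libraries. In all, 25 of the 28 differences were negative, with a median of -0.13, or -0.09 under median ratio scaling. Short noncoding RNAs aside, all tested genes leaned the same way, with 664 negative and 443 positive called and 4879 and 3931 not called. So did 27 of 30 respiratory chain genes and 17 of 20 aminoacyl-tRNA synthetases. Tk1, thymidine kinase, was at 101, 113 and 123 against 82, 85.3 and 87.7 FPKM (-0.39 ± 0.073, adjusted p = 0.0064) and kept its call without each library. The count of called replication genes was 1 without Notch1 replicate 3. It was 2 without control replicate 2 or 3, Zmiz1 replicate 1, Notch1 replicate 2 or combined replicate 3. Of 36 Myc targets of ribosome and nucleotide synthesis, 3 were higher in Notch1 and 2 in Zmiz1 libraries. Of these, Wdr12, a ribosome assembly factor, was at 58.6, 49 and 53.3 FPKM in Zmiz1 and 36.9, 34.1 and 36.1 in Notch1 libraries (0.57 ± 0.068, adjusted p = 3.72e-04), and the Notch1-side count was 1 without Zmiz1 replicate 1 and 6 without Zmiz1 replicate 2. The Zmiz1-side count was 1 without Zmiz1 replicate 1 or Notch1 replicate 2 or 3. Hspa8 was called among 16 cytosolic and mitochondrial chaperones, in favour of Zmiz1 libraries (0.33, adjusted p = 0.00514).

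Of 15 tested integrin and adhesion genes, 3 were called higher in Notch1 libraries (Gpr56, Itgal and Cd44) and 1 higher in Zmiz1 libraries (Itgam), and the Zmiz1-side count was 2 without Zmiz1 replicate 1 and 3 without Zmiz1 replicate 2. Gpr56, an adhesion receptor, was at 19.3, 20.6 and 19.4 FPKM in Notch1 and 6.97, 7.46 and 7.76 in Zmiz1 libraries (-1.31 ± 0.056, adjusted p = 1.42e-07). Tmem45a, a membrane protein in none of the lists, stood at 12.2, 9.94 and 12 against 3.64, 3.22 and 2.81 FPKM (-1.55 ± 0.097, adjusted p = 3.00e-06), and the integrin chain Itgal was higher in Notch1 libraries (-0.40, adjusted p = 0.0102). Itgam, an integrin chain better known from myeloid cells, was at 97.2, 91.3 and 100.01 against 58.2, 58 and 50.9 FPKM (0.78 ± 0.062, adjusted p = 1.99e-05), and no other myeloid marker exceeded a mean of 0.253 FPKM over the 6 libraries. Of 16 Ly6 proteins and tetraspanins, 2 were higher in Zmiz1 and 4 in Notch1 libraries. The Ly6 proteins among them were Ly6c1, at 480.2, 384 and 437 FPKM in Zmiz1 and 228, 215 and 257 in Notch1 libraries (0.89 ± 0.094, adjusted p = 1.68e-04), and Ly6d, at 10.1, 9.58 and 12.2 against 29, 33.3 and 38.3 (-1.57 ± 0.12, adjusted p = 1.83e-05). Among the tetraspanins, Cd53 was higher in Zmiz1 libraries, at 1.88, 1.74 and 1.21 against 0.447, 0.353 and 0.344 FPKM (0.91 ± 0.17, adjusted p = 0.00584), and 3 were higher in Notch1 libraries. Tspan13 was at 16.8, 11.4 and 13.4 and 28.7, 23.3 and 28.2 (-0.91 ± 0.13, adjusted p = 0.00164), Tspan5 (-0.28) kept its call without each library, and Tspan2 (-0.51) lost it without 8 of them. Of 10 Bcl2 family genes 2 were called, both of which favour cell death, Bid (-0.57, adjusted p = 0.00181) and Bmf (-0.44, adjusted p = 0.00794), and both were higher in Notch1 libraries.

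Set against the control, which both comparisons share, the leading genes fell into different layouts. Etv5 averaged 72.8 ± 1.13 FPKM in the control, between 179 ± 6.2 in Zmiz1 and 31.8 ± 1.71 in Notch1 libraries, with differences from the control of 1.29 (adjusted p = 5.30e-07) and -1.17 (adjusted p = 1.04e-06). Gzma had the same layout, with 1.81 (adjusted p = 5.30e-07) and -1.36 (adjusted p = 3.73e-06), and Il7r had 1.26 and -0.82. For Ccr8 the Zmiz1 libraries alone were called against the control (3.27, adjusted p = 4.14e-08, against -0.25, adjusted p = 0.246). For Asns it was the Notch1 libraries (2.01, adjusted p = 1.04e-06, against 0.22, adjusted p = 0.357). Gpr56 was called in both (-1.08, adjusted p = 2.15e-06 in Zmiz1, and 0.22, adjusted p = 0.0447, in Notch1 libraries). Over all genes 214 (2.11%) were called in Zmiz1 and 557 (5.49%) in Notch1 libraries against the control.

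The combined libraries, which carried both factors, did not take one side. Gzma averaged 1127 ± 36.7 FPKM and Etv5 98.6 ± 4.46 there, between the single-vector groups, and both were called against each of them (Gzma -0.998 and 2.17, Etv5 -0.86 and 1.60 against Zmiz1 and Notch1 libraries). Mecom (12 ± 0.464 FPKM), H2-T3 (58 ± 5.84) and Ly6c1 (233 ± 12.9) were not called against Notch1 libraries. Tpi1 averaged 47.7 ± 3.32 FPKM and Slc16a3 3.12 ± 0.247, each called against Notch1 (-1.22 and -1.36) and not against Zmiz1 libraries (0.39 and 0.32). Over all genes 392 (3.86%) were called between combined and Zmiz1 and 153 (1.51%) between combined and Notch1 libraries. These comparisons share libraries with the one described, so the values stand side by side and their likeness was not tested.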

How the data were processed

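RNA from sorted cells of the line 8946 was sequenced in 12 libraries made with a kit that keeps no strand information, per the labels' protocols, so overlapping genes on opposite strands cannot be told apart. The authors deposited FPKM, 1 value per gene symbol and library, per the file headers. The submitters' processing notes name the build mm10 and, with no role given, Bowtie2 2.1.0.0, Cuffdiff 2.1.1, Cufflinks, FastQC 0.10.0 and TopHat2 2.0.9; the gene annotation is not given in the sources used here. Of 23284 symbols 6449 were at 0 throughout. The 10152 genes averaging 1 FPKM or more across libraries were analysed as log2(FPKM + 1) in 1 limma model (3.58.1, R 4.3.3) with 1 mean for each of 4 groups, variances moderated along a trend with level, two-sided tests, Benjamini-Hochberg adjusted over all genes, threshold 0.05. Groups follow the titles. Of the tested genes 203 were at 0 in some library, 198 of them short noncoding RNAs. Positions are from GENCODE M21 (GRCm38, equal to mm10; 9148 symbols matched).

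Named genes were the 15 largest called differences each way without overlap, passing over predicted genes and short noncoding RNAs, up to 4 called members a list, 8 and 6 called genes whose control libraries lay between or outside both groups, and the vector and Notch target genes. Further list members, Spats2l, Alg12, the neighbours and the H2-T region genes were named after their values were seen. The members of the comparison and the gene lists were chosen with earlier results of these data known. In simulated data with 200 changed genes, 75.4% of 1.5-fold and 95% of 2-fold changes were recovered, and 6% of calls were false. The simulated libraries had independent normal noise, no batch and no library that stood apart. These rates therefore check the code and are not rates for the calls reported here. Alternatives were another pseudocount (0.1), filter (none, or 5 FPKM) or scaling, fewer libraries in the model, robust variances, no short noncoding RNAs, the replicate number as a block, and each library left out. Values of a few list members are not reported here.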

Additional observations from a re-analysis of the deposited data

How the results depend on the processing

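Of 119 named genes with a call, 92 kept it without each library in turn and 66 under every setting. With only the 6 Zmiz1 and Notch1 libraries in the model, 266 genes were called (112 higher in Zmiz1, 154 in Notch1). Called on the Notch1 side were 3 T cell receptor, 4 class I, 4 amino acid and 1 cholesterol gene. On the Zmiz1 side they were 1 T lineage and 1 cytokine gene. That model has fewer degrees of freedom and takes the spread from the compared groups alone. The part of each in the lower count was not tested. In replicates 2 and 3 alone, a choice made after seeing the data like the batch term, 473 genes were called (192 and 281). The Notch1-side counts were then 7, 4 and 4 for T cell receptor, class I and cholesterol genes. A batch term for replicate 1 gave 1903 (709 and 1194) and 17 cholesterol genes. The replicate block gave 1843 (701 and 1142) and, on the Notch1 side, 17 cholesterol genes, 10 Myc targets and 10 tRNA synthetases. Same-numbered Zmiz1 and Notch1 libraries deviated together with correlations of 0.101, 0.020 and 0.149. Since 1 of these is under 0.1, the numbers were not treated as pairs. Zmiz1 and Notch1 libraries with different numbers ranged from -0.169 (Zmiz1 replicate 1 and Notch1 replicate 3) to 0.085 (Zmiz1 replicate 1 and Notch1 replicate 2). The same-numbered values 0.101 and 0.149 lay above this range and 0.020 lay within it. Over all groups, same-numbered libraries ranged from -0.176 (Notch1 and combined replicate 3) to 0.267 (control and combined replicate 1). Median ratio scaling gave 531 and 524 calls, quantile normalization 521 and 587, and the former left 6 class I genes.

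Leaving out 1 library gave 765 to 1110 calls in all, 331 to 463 higher in Zmiz1 and 434 to 694 in Notch1 libraries. On the Notch1 side it gave 9 to 14 T cell receptor, 5 to 9 class I, 9 to 10 amino acid, 6 to 14 cholesterol, 13 to 14 glycolysis and 16 to 18 ER genes. Nrarp, which was not called, was -0.01 and turned to 0.00061 under quantile normalization and ranged from -0.0650 to 0.0414 with 1 library left out, above 0 without Zmiz1 replicate 1 or Notch1 replicate 2 or 3. The cause of these shifts was not tested. Depth is unknown in absolute terms, so no counting interval is given.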

Other observations

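Interferon genes, which respond to viral and cytokine signals, were called higher in Notch1 libraries in 3 of 15 tested and in Zmiz1 libraries in none. Rsad2, an antiviral enzyme, was at 2.3, 1.85 and 2.34 FPKM in Notch1 and 1.3, 0.79 and 1.37 in Zmiz1 libraries (-0.56 ± 0.11, adjusted p = 0.00985), and Ifi27l2a at 4.86, 5.94 and 6 against 3.79, 3.55 and 3.66 (-0.50 ± 0.077, adjusted p = 0.00229). Bst2, the tether of budding virus (-0.55), lost its call without Zmiz1 replicate 1 or 2. Slfn2, of the Schlafen family, was at 22.2, 24.2 and 24.9 against 16.8, 12.9 and 17.2 FPKM (-0.58 ± 0.11, adjusted p = 0.00584), and in the control it was at 26.4, 30.5 and 28.7. The DNA end-joining genes Xrcc6, at 289, 332 and 334 against 215, 222 and 243 FPKM (-0.49 ± 0.083, adjusted p = 0.0039), and Dclre1c (-0.33 ± 0.069, adjusted p = 0.011), which both act in V(D)J recombination, were higher in Notch1 libraries. Of the 12 genes of that list these were the 2 called on the Notch1 side, and Lig4, a DNA ligase of the same joining step (0.25 ± 0.073, adjusted p = 0.0496), was called higher in Zmiz1 libraries, a call that ended without 10 of the 12 libraries and under quantile normalization. Rag1 (0.35) and Rag2 (-0.34) were not called.

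Cox6a2, a cytochrome oxidase subunit best known from muscle, was at 4.87, 3.26 and 5.03 FPKM in Notch1 and 1.38, 1.26 and 2.21 in Zmiz1 libraries (-1.04 ± 0.17, adjusted p = 0.00283), with 1.08, 0.765 and 1.12 in the control and 6.2, 6.25 and 7.88 in the combined libraries. Of 30 respiratory chain genes only Cyc1 and Cox5a were called, and neither kept the call without each library. Stra6, the retinol transporter, was at 13.9, 14.2 and 13 against 3.83, 3.95 and 4.12 FPKM (-1.57 ± 0.064, adjusted p = 1.07e-07). Jun was at 5.93, 0.859 and 5.51 FPKM in Zmiz1 and 0.84, 0.778 and 0.75 in Notch1 libraries and was not called (1.29, adjusted p = 0.0589), with Zmiz1 replicate 2 at the level of the Notch1 libraries; it was named after its values were seen.

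Among genes between 0.003 and 0.03 FPKM, ratios between libraries recur. The commonest ratio (within 0.01 on the log2 scale) held 36.4 to 52.0% of genes in the 28 pairs among replicates 2 and 3, 11.6 to 37.5% in the 6 pairs among replicates 1, and 2.61 to 4.29% in the 32 pairs of a replicate 1 with a replicate 2 or 3. Replicate 1 of each group thus followed other steps than the rest, and what set it apart is not given in the sources used here. If these steps reflect relative depth, Zmiz1 replicate 2 had 0.77 of the depth of Zmiz1 replicate 3. It likewise had 0.71 of that of Notch1 replicate 2 and 0.69 of that of Notch1 replicate 3. The part of this in the results was not tested.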
